A study of Mus musculus with 4 samples.

Results

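Primary granule leukaemia cells are the mouse MLL-AF9 leukaemia cells in which the transcripts of 4 azurophil granule enzymes, Elane, Mpo, Prtn3 and Ctsg, together made up 0.5% or more of the cell's UMIs (unique molecular identifiers, each standing for 1 captured transcript) and in which Cxcr2 had 0 UMIs. They were taken from the cells with 500 or more detected genes, 1000 or more UMIs and at most 10% mitochondrial UMIs. This rule found 4723 of 24955 such cells, 2824 of 13177 in the library labelled WT (wild type) and 1899 of 11778 in the library labelled KO (knockout). Because the rule reads the 4 genes and Cxcr2, their values in these cells are given as a description.

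The series holds 4 droplet libraries of mouse bone marrow, 1 per group: c-Kit+ cells labelled WT and KO, and MLL-AF9 leukaemia cells labelled WT and KO. MLL-AF9 is a fusion oncogene of acute myeloid leukaemia, c-Kit is the receptor by which blood progenitors are commonly enriched, and the series title names Rbm5, an RNA-binding splicing factor, as the gene under study. The age and number of mice, the way the leukaemias were made, and the deleted part of Rbm5 are not given in the sources used here. With 1 library per group there was no test, and every interval below is a 95% interval that covers counting error only, not the spread between mice or leukaemias.

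The cells that passed the filters numbered 12948 and 13708 in the WT and KO c-Kit+ libraries, and the 4 libraries had medians of 5352 to 7420.5 UMIs per cell. Scrublet, a doublet caller, marked 3.09% to 4.46% of the cells, which were kept. Between the leukaemia libraries 54 barcodes were shared, 2 of them among primary granule cells in both. Rbm5 (chromosome 9, 107740371 to 107770996, minus strand, GRCm38) was at 147 CPM (the gene's UMIs summed over the cells, scaled to the same total in each group) in the primary granule cells labelled WT and at 126 CPM in those labelled KO, and in c-Kit+ cells under the same gate it was at 53.4 and 72.4 CPM. Both KO libraries thus held Rbm5 transcripts, and the c-Kit+ one held more of them than its WT counterpart. Since 3′ tags can survive a deletion elsewhere in the gene, the genotype could not be verified from these values, and WT and KO below are the names the libraries carry.

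Primary, or azurophil, granules are made in the promyelocyte stage of neutrophil development. Elane (neutrophil elastase), Prtn3 (proteinase 3) and Ctsg (cathepsin G) are serine proteases, and Mpo (myeloperoxidase) makes hypochlorous acid. The genes are switched on in granulocyte-monocyte progenitors by factors such as PU.1, MYB and C/EBPα and switched off as secondary granule genes such as Ltf, Camp, Ngp and Lcn2 come on under C/EBPε.

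Primary granule cells made up 21.4% of the cells labelled WT (20.7 to 22.1) and 16.1% of those labelled KO (15.5 to 16.8). With cells of 2000 or more UMIs thinned to 2000 before the gate, the shares were 24.5% of 11987 WT and 17.9% of 11264 KO cells. Shallower cells were left out of this version, so its set of cells also differs. The KO share was below the WT share in both versions. The same gate held 14.8% of the WT and 15.6% of the KO c-Kit+ cells. The cells that passed were deeper than the rest, with medians of 10018.5 UMIs in WT and 12565 in KO against 5118 and 6855 in the other leukaemia cells, and thinning left this order of the shares as it was.

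The threshold cut through a continuous range in leukaemia. The 4 genes took 0.25% to 0.5% of the UMIs in 10.1% of the WT cells and 0.5% to 1% in 9.54%, and in the KO library these bins held 7.73% and 7.05%. In c-Kit+ cells the same bins were thinly filled, at 1.98% and 2.17% in WT and 2.35% and 2.5% in KO, and a separate peak lay higher, with 6.97% and 8.19% of the cells at 2% to 5%. Just inside the threshold, at 0.5% to 0.6%, were 337 WT and 220 KO cells, and just outside it, at 0.4% to 0.5% with no Cxcr2 UMI, were 380 and 274. The median share in primary granule cells was 1.12% in WT and 1.16% in KO leukaemia and 2.94% and 2.72% in gated WT and KO c-Kit+ cells. The primary granule cells, chosen for these transcripts, held 82.1% (WT) and 80.9% (KO) of their leukaemia library's UMIs of the 4 genes. Cxcr2, a receptor of mature neutrophils, removed 97 WT and 86 KO cells that had passed on the 4 genes.

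**Figure D1:**
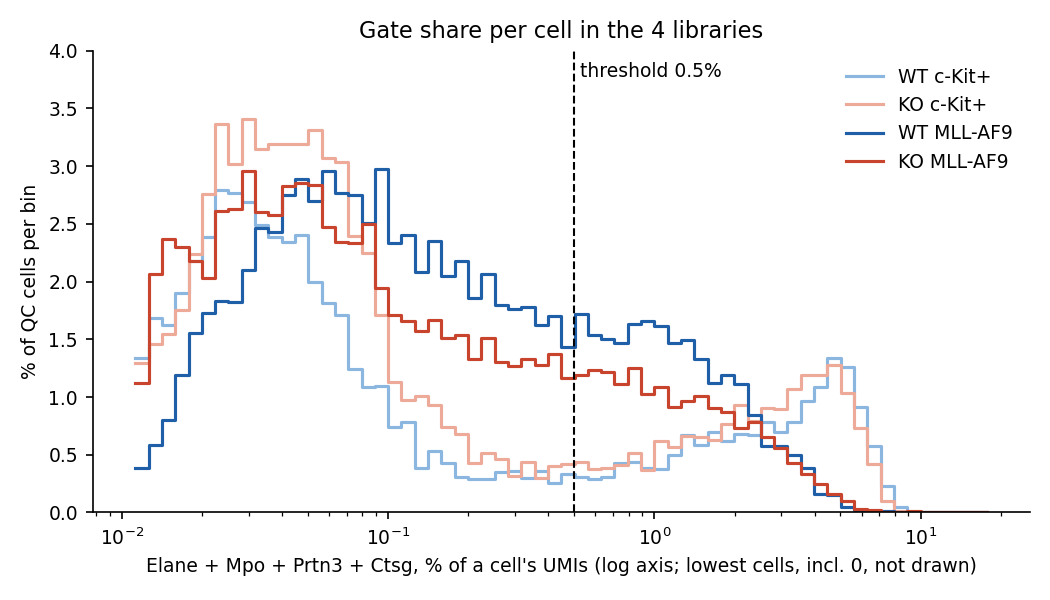
Share of a cell's UMIs from Elane, Mpo, Prtn3 and Ctsg (x, log axis) against the percent of a library's cells in each bin (y), 1 line per library, with the threshold of 0.5% dashed. The leukaemia lines run across the threshold without a gap, with 10.1% of WT cells at 0.25% to 0.5% and 9.54% at 0.5% to 1%, whereas the c-Kit+ lines have a low stretch there and a peak above 2%.

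Markers that the gate did not use bore on the label. The 6 other granulocyte-monocyte progenitor markers summed to 1666 (WT) and 1497 CPM (KO) primary granule cells, against 592 and 472 CPM in the other leukaemia cells. T or NK cell markers summed to 3.01 and 3.38 CPM, megakaryocyte markers to 10.9 and 13.8 CPM and basophil or mast cell markers to 12.3 and 15.2 CPM. Monocyte markers, at 2084 (WT) and 1542 CPM (KO), were not absent, and were at 2257 and 1407 CPM in the other leukaemia cells. Gated c-Kit+ cells had them at 1676 (WT) and 1516 CPM (KO). One of these markers, Ly6c2, alone was at 1359 (WT) and 624 CPM (KO) in primary granule cells with 0.5% to 1% of the 4 genes. Erythroid markers were at 727 and 1964 CPM against 2999 and 14551 CPM in the other leukaemia cells, and 8 primary granule cells of each library had 1% or more haemoglobin UMIs. The 107 WT and 109 KO T cells of these libraries (3 or more UMIs of Cd3d, Cd3e, Cd3g and Trbc2), which should lack granule enzymes, carried 1804 and 1303 CPM of the 4 genes, with medians of 0.0289% and 0.0149% of a cell's UMIs, and 3 and 2 of them passed the gate.

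Elane gave the most UMIs of the 4 genes in leukaemia and Mpo the fewest, by counts that are not corrected for length. Elane was at 8072 (WT) and 9044 CPM (KO) primary granule cells, and at 13700 and 11526 CPM in gated WT and KO c-Kit+ cells. Prtn3 was at 3723 and 4277 CPM in leukaemia and at 9380 and 10549 CPM in the gated c-Kit+ cells. Ctsg was at 2277 (WT) and 1911 CPM (KO) in leukaemia and at 3131 and 2972 CPM in the gated c-Kit+ cells. Mpo stood at 552 (WT) and 871 CPM (KO), below 3513 and 3233 CPM in the gated c-Kit+ cells.

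Mpo therefore made up 3.77% (WT) and 5.41% (KO) of the UMIs of the 4 genes in leukaemia, against 11.8% and 11.4% in c-Kit+ cells. A UMI of Mpo was found in 42.1% of WT (40.3 to 43.9) and 50.9% of KO primary granule cells (48.6 to 53.1), and in 99.3% and 99.2% of the gated c-Kit+ cells, whose median depths of 10646 and 12189 UMIs were close to those of the leukaemia cells. Thinned to 2000 UMIs per cell these shares were 25.4%, 31.0%, 94.2% and 93.4%. In T cells of the leukaemia libraries the thinned share with a UMI of Mpo was 5.71% (WT) and 3.77% (KO). All 4 genes were detected together in 41.2% of the WT and 49.1% of the KO primary granule cells, against 95% and 94.7% of the gated c-Kit+ cells.

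Across single cells the 4 genes varied together in each library. Spearman correlations between the shares of any pair lay between 0.38 and 0.51 over the 2824 WT cells, between 0.43 and 0.66 over the 1899 KO cells, and between 0.49 and 0.88 over the gated c-Kit+ cells. The ranges overlap, and Elane with Ctsg was at 0.53 in KO leukaemia and at 0.49 in either set of gated c-Kit+ cells. These values describe cells of 1 library each, chosen on the sum of the same genes, and test no difference between libraries.

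The promoters of the 4 genes are shown because these genes define the cells and vary together in them. Each is the 250 bases before the RefSeq start site in GRCm38.p6, read along the gene, with matches in capitals to GAGGAA (an ETS core as bound by PU.1), AACGG (the MYB core) and GCAAT (a C/EBP half-site), searched on both strands. Their positions are chr10:79886062-79886311 (plus strand) for Elane, chr10:79879417-79879666 (plus) for Prtn3, chr11:87793534-87793783 (plus) for Mpo and chr14:56102575-56102824 (minus) for Ctsg.
Elane: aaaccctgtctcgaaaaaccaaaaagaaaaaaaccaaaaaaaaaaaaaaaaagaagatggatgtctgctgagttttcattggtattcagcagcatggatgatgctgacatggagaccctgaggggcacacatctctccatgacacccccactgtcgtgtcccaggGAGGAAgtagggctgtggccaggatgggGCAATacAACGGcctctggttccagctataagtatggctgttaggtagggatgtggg
Prtn3: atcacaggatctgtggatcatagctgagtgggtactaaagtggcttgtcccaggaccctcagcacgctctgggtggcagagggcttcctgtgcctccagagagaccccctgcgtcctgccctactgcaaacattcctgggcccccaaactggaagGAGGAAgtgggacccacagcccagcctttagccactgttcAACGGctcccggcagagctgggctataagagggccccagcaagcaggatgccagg
Mpo: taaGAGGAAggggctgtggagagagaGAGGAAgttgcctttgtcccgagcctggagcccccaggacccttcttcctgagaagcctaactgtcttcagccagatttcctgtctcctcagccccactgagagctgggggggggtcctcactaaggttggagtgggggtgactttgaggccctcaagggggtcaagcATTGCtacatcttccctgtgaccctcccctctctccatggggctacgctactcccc
Ctsg: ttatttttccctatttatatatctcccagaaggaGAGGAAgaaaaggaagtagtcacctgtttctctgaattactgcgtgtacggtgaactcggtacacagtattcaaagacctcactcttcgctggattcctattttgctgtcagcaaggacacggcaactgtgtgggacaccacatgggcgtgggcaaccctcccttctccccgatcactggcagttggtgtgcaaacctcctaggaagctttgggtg
The Elane window held GAGGAA 85 bases, GCAAT 57 bases and AACGG 50 bases before the start. The Prtn3 window held GAGGAA at 95 and AACGG at 55 bases, an arrangement like that of Elane, its neighbour on chromosome 10. Mpo had GAGGAA at 247 and 224 bases and GCAAT on the reverse strand (ATTGC) at 56 bases, and Ctsg had GAGGAA at 216 bases. Among 32851 promoter windows of this length GAGGAA occurred in 23.3%, AACGG in 14.5%, GCAAT in 23.1% and all of them in 0.731%. A match describes the letters and is not evidence of binding.

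Within the primary granule cells, a higher share of the 4 genes went with more Mpo and with less Meis1 and Mecom. The cells at 0.5% to 1%, 1% to 2%, 2% to 5% and 5% or more numbered 1211, 1050, 550 and 13 in WT and 794, 649, 438 and 18 in KO. Mpo, part of the sum, ran from 73.1 through 373 and 1653 to 6182 CPM in WT and from 109 through 396 and 2290 to 7328 CPM in KO, a steeper climb than Elane, from 3839 to 31092 CPM in WT. Outside the sum, Meis1, a homeobox cofactor of Hoxa9, ran from 498 to 158 CPM in WT and from 393 to 97.3 CPM in KO. Mecom, which codes for the stem cell transcription factor EVI1, ran from 901 to 369 and from 1309 to 411 CPM. Hoxa9, a homeobox factor driven by MLL fusions, differed less along this order, at 198 and 148 CPM in WT and 123 and 116 CPM in KO at its ends. Myb, also listed with the MLL fusion programme, ran the other way, from 419 to 612 CPM in WT and from 229 to 411 CPM in KO. The fall of Meis1 was not particular to leukaemia. In gated c-Kit+ cells it ran from 29.2 to 1.92 CPM in WT and from 27.7 to 0.304 CPM in KO. Calr, a chaperone of glycoprotein folding, rose in leukaemia, from 557 to 971 CPM in WT and from 385 to 1156 CPM in KO. The class of 5% or more holds few cells, and the same order of values was already present from the first class to 2% to 5%, where Meis1 was at 344 (WT) and 263 CPM (KO).

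Secondary granule genes overlapped with the primary ones to a different extent in the 2 libraries. Ltf, Camp, Ngp and Lcn2 together took under 0.1% of the UMIs in 54.1% of the WT primary granule cells (52.3 to 56.0) but in 20.6% of the KO ones (18.8 to 22.5). They took 1% or more in 15.3% of the WT (14.0 to 16.6) and 42.2% of the KO cells (40.0 to 44.5). In gated c-Kit+ cells 41.1% (WT) and 33.0% (KO) had under 0.1%, and 39.1% and 41.3% had 1% or more. By the upper class the KO leukaemia lay near both c-Kit+ libraries and the WT leukaemia apart from them, and by the lower class the KO leukaemia lay below the other libraries. T cells of the same libraries carried 4040 CPM (WT) and 7278 CPM (KO) of these 4 genes, so the level outside granulocytes also differed between the libraries, and its part in the difference was not tested. Among primary granule cells the primary and secondary shares ran against each other, with a Spearman correlation of -0.28 in WT and -0.43 in KO.

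**Figure D2:**
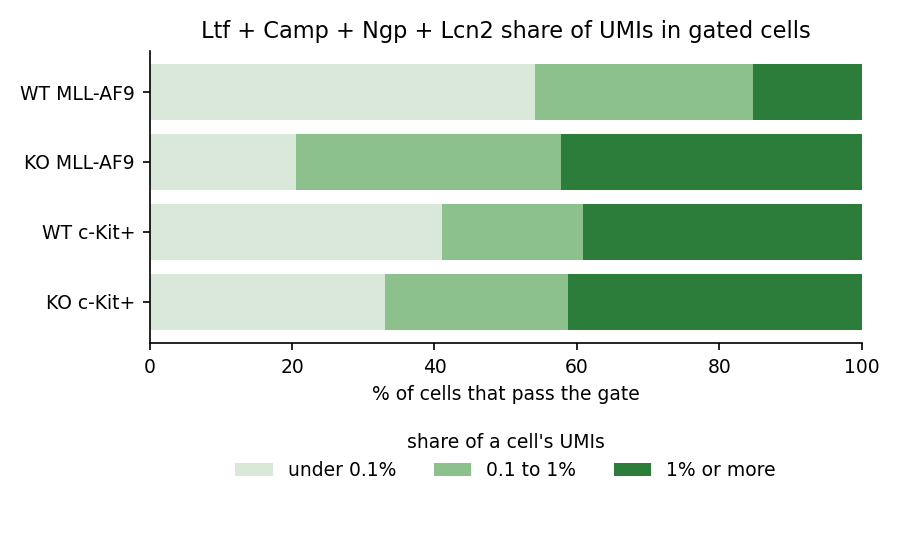
Percent of gated cells (x) in 3 classes of the Ltf, Camp, Ngp and Lcn2 share of UMIs, 1 bar per library. Cells with under 0.1% make up 54.1% of the WT MLL-AF9 bar and 20.6% of the KO MLL-AF9 bar, and cells with 1% or more 15.3% and 42.2%.

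Along this order the KO and WT cells shared several gradients. From the class under 0.1% to that of 1% or more, Cebpe, the factor that drives secondary granule genes, ran from 174 to 423 CPM in WT and from 146 to 415 CPM in KO. Irf8, a monocyte lineage factor, ran from 135 to 25 CPM in WT and from 235 to 15.4 CPM in KO. Cd34, a progenitor antigen, ran from 32.2 to 7.55 CPM and from 40.1 to 1.10 CPM, so the cells with the fewest secondary granule transcripts had the most Irf8 and Cd34 in both libraries.

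Clustering each library's primary granule cells without the 4 gate genes and Cxcr2 gave 8 clusters in each. One cluster of each library was monocyte-like, WT cluster 4 with 558 cells and KO cluster 8 with 279, having 8 and 9 of 9 monocyte markers raised. In it Irf8 stood at 329 (WT) and 453 CPM (KO), F13a1 (coagulation factor XIII A) at 535 and 1173 CPM, and Csf1r, the receptor of the monocyte growth factor, at 49.6 and 62.3 CPM. Scrublet marked 7.17% and 8.60% of these cells, above the 2.55% and 3.26% of all primary granule cells. They still carried Elane at 5813 and 6730 CPM and Mpo at 695 and 1311 CPM, and they held the highest Cd34, at 75.8 and 64.8 CPM. The primary granule cells thus included cells with monocyte markers in both libraries.

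Dividing cells formed WT cluster 3, with 640 cells, and KO cluster 6, with 346, both led by the mitotic genes Ube2c, Plk1 and Nusap1. Mki67, a marker of cycling cells, was at 589 CPM in the WT and 435 CPM in the KO cluster. WT cluster 7, with 114 cells, also had mitotic genes among its leading ones, such as Ccnb2, Cenpa and Cdc20. It had Mki67 at 327 CPM against 280 CPM in the other WT primary granule cells, but Top2a at 100 against 428 CPM. KO cluster 7, a smaller one, was led by genes active in DNA replication and repair, among them Ung and Hells. WT cluster 6, with 370 cells, was neutrophil progenitor-like with secondary granules, all 8 markers raised, Ngp at 6059 CPM and Ltf at 154 CPM. KO cluster 1, with 343 cells, had Camp at 19554 CPM and Ngp at 12849 CPM and stays without a name because markers of erythroid cells were raised in it too. KO cluster 4, with 44 cells, was led by Stfa2, Stfa3 and Ltf, and 45.5% of it was marked by Scrublet.

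A stefin cluster was found in each library, WT cluster 1 with 524 cells and KO cluster 5 with 181, led by the cysteine protease inhibitor genes Stfa1, Cstdc4 and Cstdc5. In WT cluster 1 Stfa1 was at 2965 CPM against 363 CPM in the other primary granule cells, and in KO cluster 5 at 2151 against 214 CPM. Pbx3, a partner of Meis1 and Hoxa9, was at 1080 CPM in KO cluster 5 against 121 CPM in the other KO primary granule cells. In WT, Pbx3 lay between 654 and 1292 CPM in every cluster but cluster 8, where it was at 83.0 CPM. WT cluster 5, with 464 cells, was led by Mmp9 and the protocadherin gene Pcdh7 and had Mecom at 1599 CPM against 229 CPM in cluster 1. Clusters of the 2 libraries were found separately, share leading genes in part, and are not compared by size.

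Set against the other leukaemia cells of the same library, primary granule cells were higher in granule, folding and growth genes and lower in mature neutrophil genes. Of 8247 genes that averaged 10 CPM or more, 126 (1.53%) were 2-fold or more higher in both libraries and 352 (4.27%) 2-fold or more lower. With median-ratio size factors, which set the median gene to no difference, these were 59 and 433. By any amount, 4419 genes were higher in both libraries and 2381 lower in both. Such lists hold genes that vary with the gate genes, so they describe the cells the rule finds and test nothing.

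Other products of the same stage came first. Of 14 measured primary granule partners, 6 were 2-fold or more higher and 1 lower in both libraries, against 1.53% and 4.27% of all genes. The medians on the log2 scale were 1.04 in WT and 1.29 in KO, against 0.09 and 0.22 over all genes. Nkg7, a granule membrane protein, was at 553 CPM in WT primary granule cells against 127 CPM in the other WT cells, and at 399 against 60.4 CPM in KO. Ms4a3, a membrane protein of granulocyte-monocyte progenitors, was at 675 against 197 CPM in WT and 668 against 165 CPM in KO. Prss57, a serine protease of the same granules, was at 245 against 89.8 CPM and 204 against 53.4 CPM. The member lower in both was Lyz2, lysozyme, which continues in later neutrophils and macrophages, at 1059 against 4870 CPM and 2585 against 7333 CPM.

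Genes of protein folding and secretion were higher in 19 of 20 measured members in both libraries, 4 of them by 2-fold or more, with medians of 0.80 in WT and 0.86 in KO. Calr was at 687 against 336 CPM in WT and 575 against 195 CPM in KO. Ssr4, a subunit of the translocon-associated complex, was at 361 against 175 CPM and 324 against 127 CPM. Genes of MYC and ribosome biogenesis gave 9 of 33 at 2-fold or more higher in both libraries. Over all 8247 genes 4419 were higher in both, 1.53% by 2-fold or more. Srm, spermidine synthase, was at 40.3 against 12.6 CPM and 19.4 against 6.19 CPM. Myc itself was at 43.0 against 17.3 CPM in WT and 26.5 against 8.71 CPM in KO.

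Progenitor genes were split, with 5 of 10 stem and early progenitor genes higher in both libraries, 4 lower and 0 past 2-fold in both. Kit and Myb passed 2-fold in KO alone and Flt3 in WT alone. Over all 8247 genes 4419 were higher and 2381 lower, and 1.53% and 4.27% passed 2-fold. The list medians were -0.07 in WT and 0.58 in KO, against 0.09 and 0.22 over all genes. Among the higher genes, Kit was at 90.3 against 47.2 CPM in WT and 49.8 against 21.4 CPM in KO. Myb, a transcription factor of progenitors, was at 461 against 243 CPM and 281 against 100.5 CPM. Flt3, a receptor of earlier progenitors and dendritic cells, went the other way, at 10.6 against 31.2 CPM and 2.37 against 4.67 CPM. In cells thinned to 2000 UMIs a UMI of Kit was found in 15.4% of the WT and 9.15% of the KO primary granule cells, in 7.78% and 3.42% of the other leukaemia cells and in 2.86% and 2.83% of T cells. Of 35 S phase genes 34 were higher in both libraries and of 40 genes of G2 and mitosis 38, but 1 of each list by 2-fold or more. The MLL fusion programme did not set these cells apart as a list, with medians of -0.15 and 0.11. Of its 22 genes 0 passed 2-fold the same way in both libraries. Myb and Flt3, which are on this list, passed it in KO alone and in WT alone.

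Lower genes included those of later neutrophils and of MHC class II, which presents antigen to T cells. Over all 8247 genes 4.27% were 2-fold or more lower in both libraries and 1.53% higher. Of 14 secondary granule genes 10 were 2-fold or more lower in both libraries and of 18 late neutrophil genes 11. Ltf, lactoferrin, was at 38.3 against 790 CPM in WT and 87.2 against 1558 CPM in KO. Retnlg, of late neutrophils, was at 9.59 against 320 CPM and 19.4 against 522 CPM. Cells with a Cxcr2 UMI, a late neutrophil gene, are among the other cells by rule, and their part in this was not tested. Of 6 MHC class II genes 4 were 2-fold or more lower in both, and Cd74, the invariant chain, was at 13.1 against 325 CPM in WT and 15.6 against 123 CPM in KO. Class II transcripts (H2-Aa, H2-Ab1, H2-Eb1 and Cd74) took 0.1% or more of the UMIs in 0.142% of WT and 0.211% of KO primary granule cells, and in 4.89% and 1.82% of the other cells. Of 16 monocyte and macrophage genes 6 were 2-fold or more lower in both and 0 higher. Of 28 immediate early genes 7 were lower by this measure and 0 higher.

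**Figure D3:**
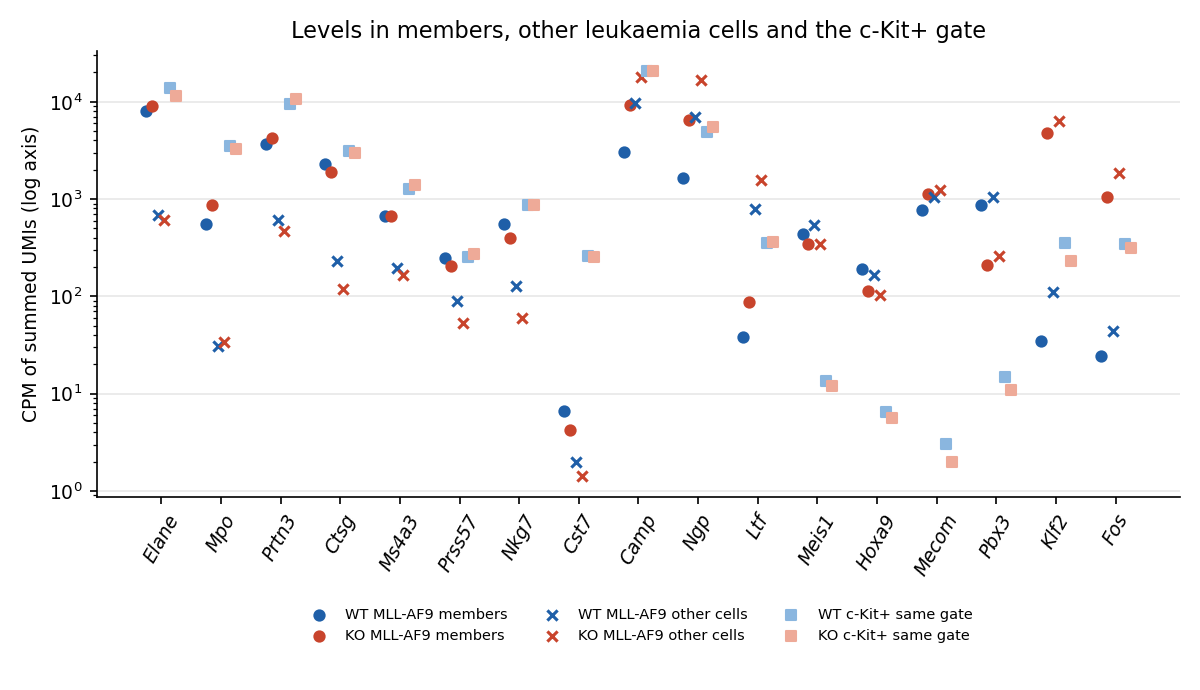
Level of 17 genes (x) as CPM of summed UMIs (y, log axis) in leukaemia primary granule cells (circles), the other leukaemia cells (crosses) and c-Kit+ cells that pass the same gate (squares), by library, with no error bars as each point is 1 sum. Mpo lies lower in leukaemia (552 and 871 CPM) than in gated c-Kit+ cells (3513 and 3233 CPM), Mecom the reverse, and Klf2 and Fos are highest in KO leukaemia.

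Against c-Kit+ cells that pass the same gate, the leukaemia cells carried the MLL fusion programme and lacked part of the normal granule set. Of 7996 genes 780 (9.75%) were 2-fold or more higher in leukaemia in both genotypes and 199 (2.49%) lower. With median-ratio size factors the split turned to 440 and 517. Of 22 genes of the MLL fusion programme 13 were higher and 0 lower by 2-fold, with medians of 2.19 in WT and 2.33 in KO against 0.36 and 0.17 over all genes. Meis1 was at 436 and 345 CPM in WT and KO leukaemia against 13.5 and 11.9 CPM in gated c-Kit+ cells, and Hoxa9 at 191 and 114 against 6.42 and 5.65 CPM. Mecom was at 771 and 1138 CPM against 3.01 and 1.99 CPM. Hpgd, a prostaglandin-degrading enzyme, was at 1193 and 602 CPM against 1.37 and 1.35 CPM.

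Among granule partners 4 of 16 were 2-fold or more lower in leukaemia and 1 higher, against 2.49% and 9.75% of all genes. Cst7, cystatin F, an inhibitor of granule cathepsins, was at 6.64 and 4.26 CPM in leukaemia against 259 and 254 CPM in gated c-Kit+ cells, and a UMI of it was found in 5.56% and 3.58% of cells against 84.3% and 84.5%. T cells of the leukaemia libraries, which express this gene, had it in 32.7% and 33.9%. Prg2, of eosinophil granules, was at 9.26 and 3.94 against 168 and 80.8 CPM. Of 47 nuclear genes of oxidative phosphorylation 11 were 2-fold or more lower in leukaemia, with medians of -0.49 and -0.97. Mif, a cytokine, was at 143 and 93.2 against 548 and 724 CPM. The leukaemia libraries carry no c-Kit+ label, so that label and the disease cannot be told apart here.

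KO against WT within the primary granule cells gave 387 of 8252 genes (4.69%) at 2-fold or more higher and 507 (6.14%) lower. The median of all genes was -0.26 on the log2 scale, and with median-ratio size factors, which move it to 0, the split turned to 546 and 203. In gated c-Kit+ cells the same comparison gave 4 of 7474 genes (0.0535%) higher and 4 lower. In the other leukaemia cells it gave 457 of 8091 genes (5.65%) higher and 1074 (13.3%) lower. Of the 8252 genes 5892 were lower in KO by any amount, or 4128 with median-ratio size factors. List medians and counts of higher or lower genes below are to be read against -0.26 and these counts and shares.

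Immediate early genes, transcription factors and feedback regulators that respond within minutes to stimuli or to handling, stood highest. Of 28 measured 26 were 2-fold or more higher in KO and 0 lower, with a median of 4.17, and 27 of the 28 were higher with median-ratio size factors by 2-fold or more. Klf2, a Krüppel-like factor, was at 35.0 (WT) and 4812 CPM (KO), which is 138-fold (130 to 146). Egr1 was at 8.25 and 541 CPM, Fosb at 17.3 and 1057 CPM, and Fos, of the same family, at 24.3 and 1050 CPM. The phosphatase gene Dusp1 was at 5.76 and 388 CPM and Jun at 41.3 and 1352 CPM. Klf2 was found in 97.6% of the thinned KO primary granule cells and 6.56% of the WT ones, and in 91.5% and 19.0% of the thinned KO and WT T cells.

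Klf2 and Fos were also high outside the primary granule cells of the KO library. Klf2 was at 112 CPM in the other WT leukaemia cells and 6334 CPM in the other KO ones, and in T cells at 100.6 and 3362 CPM. Fos was at 44.5 and 1851 CPM in the other leukaemia cells and at 22 and 1003 CPM in T cells. Gated c-Kit+ cells had Klf2 at 351 (WT) and 230 CPM (KO), above WT and below KO leukaemia. From primary granule cells at 0.5% to 1% of the 4 genes to those at 2% to 5%, Klf2 ran from 5448 to 3865 CPM in KO and from 50.2 to 17.5 CPM in WT, with no overlap. As each group is 1 library, genotype and library cannot be told apart.

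Inflammatory genes and part of the stress genes were higher beside them, where 4.69% of all genes were 2-fold or more higher and 6.14% lower. Of 16 measured inflammatory cytokines and NF-κB feedback genes 11 were 2-fold or more higher in KO and 0 lower, with a median of 2.25. The chemokine genes Ccl3 and Ccl4 were at 10.3 and 3.21 CPM in WT and 246 and 148 CPM in KO. Il1b, a pyrogenic cytokine, was at 1.90 and 79.7 CPM. Of 14 heat shock genes 4 were 2-fold or more higher, among them Hspa1a, at 23.1 and 163 CPM. By any amount 8 of them were higher and 6 lower. In the BCL2 family 4 of 10 were 2-fold or more higher and 1 lower, with a median of -0.16. Mcl1, a short-lived survival factor, was at 139 and 1199 CPM. The p53-induced killers Bbc3 and Pmaip1 were at 7.23 and 27.9 CPM in WT and 49.0 and 173 CPM in KO. Cdkn1a, an inhibitor of cyclin-dependent kinases, was at 6.22 and 48.3 CPM, 1 of 7 p53 targets of 16 that were 2-fold or more higher, with 2 lower and a median of -0.03 over the list.

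Secondary granule genes were higher in KO in all 13 measured, 9 of them by 2-fold or more, with a median of 1.23. Camp, cathelicidin, was at 3045 (WT) and 9215 CPM (KO), Ngp at 1655 and 6435 CPM, Wfdc21 at 112 and 536 CPM, and Lcn2 at 614 and 1234 CPM. The same list in the other leukaemia cells had a median of 0.74. Weighting the WT and KO cells to the same secondary granule classes brought the median to 0.34, and within the cells under 0.1% it was 0.64, where Lcn2 was at 138 and 135 CPM. These classes are set by Ltf, Camp, Ngp and Lcn2, which belong to the list, so a smaller median comes in part from the matching itself. In T cells Camp was at 2299 (WT) and 3419 CPM (KO).

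Of 14 primary granule partners 3 were 2-fold or more higher in KO and 0 lower, with a median of 0.03, or 0.30 with median-ratio size factors. The 3 were Igfbp4 (19.1 and 109 CPM in WT and KO), an insulin-like growth factor binding protein, the ficolin gene Fcnb (552 and 1391 CPM) and Lyz2 (1059 and 2585 CPM). Ms4a3 was at 675 and 668 CPM, or 0.989-fold (0.969 to 1.01). In the folding list Hspa5, the chaperone BiP, was at 413 and 847 CPM and Dnajb9 at 31.5 and 153 CPM, whereas Sdf2l1 was at 233 and 108 CPM. Over the list 16 of 20 were lower by any amount, or 12 of 20 with median-ratio size factors, shares not far from those of all genes (5892 and 4128 of 8252).

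Stem and MLL fusion genes were lower in part. Of 22 genes of the MLL fusion programme 3 were 2-fold or more lower in KO and 0 higher, with a median of -0.49. By any amount 16 of 22 were lower, or 13 of 22 with median-ratio size factors, shares near those of all genes (5892 and 4128 of 8252). Pbx3 was at 864 (WT) and 213 CPM (KO), or 0.246-fold (0.239 to 0.254), and a UMI of it was found in 64.3% and 15.2% of thinned cells, against 27.6% and 2.83% of T cells. Igf2bp3, an RNA-binding protein of fetal stem cells, was at 98.8 and 28.3 CPM and Cbx5, heterochromatin protein 1 alpha, at 182 and 60 CPM. Hoxa9 and Meis1 had ratios of 0.595 and 0.791, with the levels given above. Mef2c and Mecom were on the other side, at 846 and 1316 CPM and at 771 and 1138 CPM.

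Of 9 stem and early progenitor genes 2 were 2-fold or more lower in KO, Angpt1 (95.2 and 23.2 CPM), a ligand of the TIE2 receptor, and Ikzf2 (504 and 174 CPM), an Ikaros family factor. Kit was at 90.3 and 49.8 CPM, Myb at 461 and 281 CPM, Cd34 at 20.8 and 12.5 CPM and Myc at 43.0 and 26.5 CPM. Pcdh7 had the lowest ratio of the named genes, 268 and 17.6 CPM. Adgrl4, an adhesion receptor, was at 137 and 30.2 CPM and Diaph3, an actin nucleator, at 290 and 85.3 CPM.

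Cell cycle genes were lower in KO. All 35 S phase genes were lower, 7 of them by 2-fold or more, with a median of -0.64. With median-ratio size factors 33 of the 35 were lower, 2 of them by 2-fold or more. Over all 8252 genes 5892 were lower, or 4128 with median-ratio size factors. Hells, a chromatin remodeller of replicating cells, was at 140 and 52.8 CPM and Ung, a DNA repair glycosylase, at 28.4 and 12.6 CPM. Of 40 genes of G2 and mitosis 38 were lower, 5 of them by 2-fold or more, such as Top2a, topoisomerase II alpha, at 418 and 190 CPM. With median-ratio size factors 34 of the 40 were lower, 2 of them by 2-fold or more, and 1 was higher by 2-fold or more. Cks2, a kinase subunit of the same list, was at 575 (WT) and 1040 CPM (KO).

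Lists of broad function had medians close to that of all genes. Of 50 spliceosome and SR protein genes 1 was 2-fold or more higher, Srsf5, at 246 (WT) and 594 CPM (KO), and 0 were lower, with a median of -0.31. Of 47 oxidative phosphorylation genes 1 was lower by 2-fold and the median was -0.37. MYC and ribosome biogenesis gave 1 of 34 in each direction, at a median of -0.34. Among growth factor receptors 1 of 11 was higher by 2-fold and 0 lower. Of the lineage factors, Cebpa was at 36.0 and 60.2 CPM, Cebpe at 255 and 309 CPM, Spi1 (PU.1) at 383 and 530 CPM and Gfi1, a repressor needed for granulocytes, at 104 and 78.8 CPM.

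**Figure D4:**
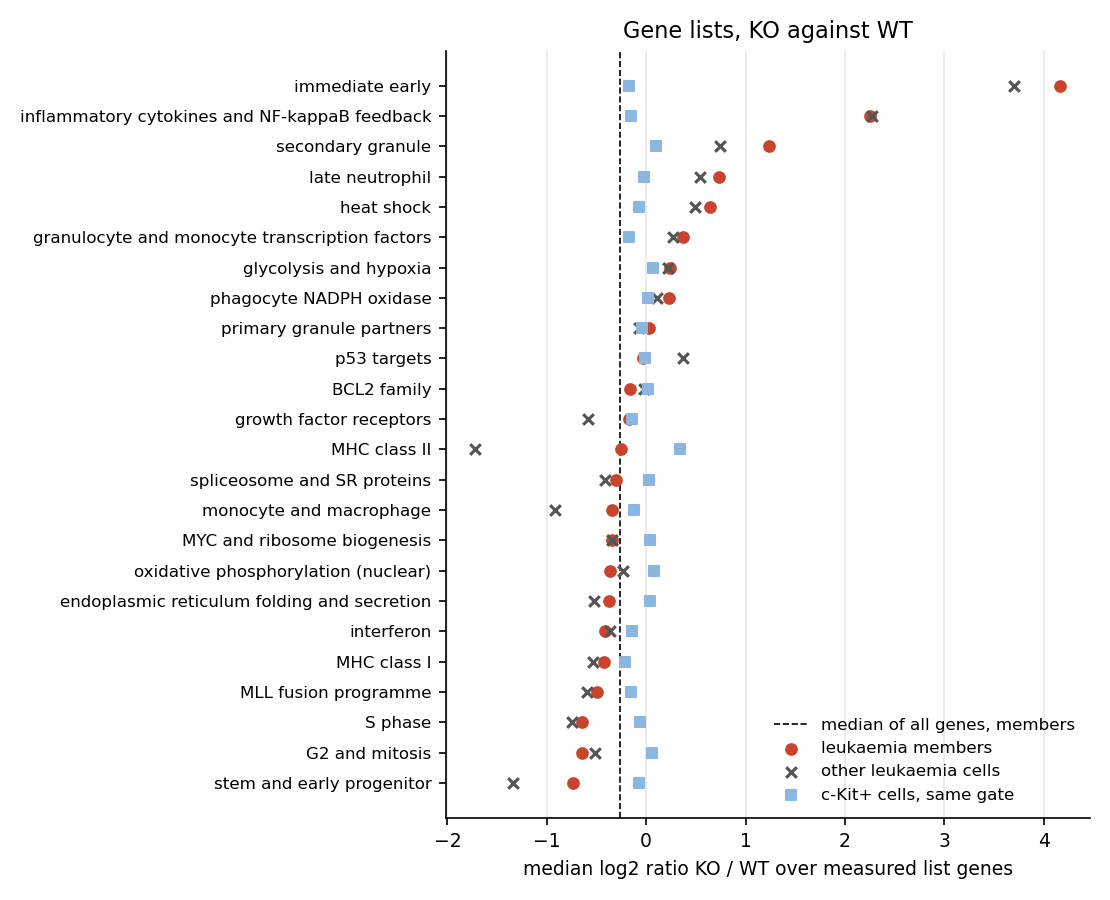
Median log2 ratio of KO over WT (x) over the measured genes of 24 lists (y) in leukaemia primary granule cells (circles), the other leukaemia cells (crosses) and gated c-Kit+ cells (squares). The dashed line is the median of all genes in primary granule cells, -0.26, and immediate early genes lie farthest from it at 4.17, with c-Kit+ medians between -0.21 and 0.34.

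The KO differences of primary granule cells and of the other leukaemia cells can be set side by side over 7655 genes at 10 CPM or more in both. They come from the same 2 libraries, so their likeness is no separate evidence. For 67 genes the log2 ratio was higher in primary granule cells by 1 or more, and for 43 it was lower by 1 or more. Lmnb1, of the nuclear lamina, was at 196 and 259 CPM in WT and KO primary granule cells and at 191 and 979 CPM in the others. Cxcl2, a neutrophil chemokine, was at 5.86 and 128 CPM and at 21.2 and 1276 CPM. In the other direction, Irf8 was at 86.5 and 77.3 CPM in primary granule cells, close in both libraries, but at 103 and 39.7 CPM in the others. Itga1, an integrin subunit, behaved alike, at 56.7 and 52.3 CPM and at 119 and 35.3 CPM. Monocyte and macrophage genes as a list had 1 of 16 lower and 2 higher by 2-fold in primary granule cells, where 6.14% of all genes were lower, and 7 of 16 lower and 1 higher in the others, where 13.3% were. The medians were -0.34 and -0.91, and that of the primary granule cells turned to 0.24 in cells weighted to the same secondary granule classes and to 0.29 in those under 0.1%. The differences between these values were not tested.

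**Figure D5:**
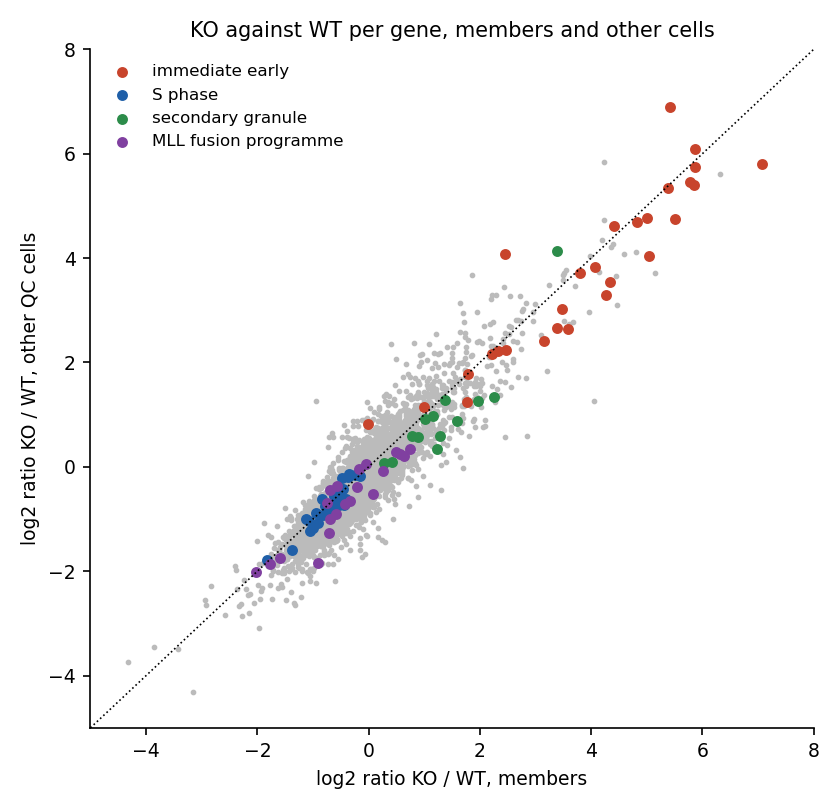
Log2 ratio of KO over WT per gene in primary granule cells (x) and in the other leukaemia cells (y) for 7655 genes, with 4 lists coloured and the dotted line marking equal values. Immediate early genes lie at the upper right in both (medians of 4.17 and 3.71), secondary granule genes at 1.23 and 0.74, and S phase genes at the lower left (-0.64 and -0.74).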

How the data were processed

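The authors deposited UMI counts per gene and cell for 4 droplet libraries. Reads had been processed with Cell Ranger 7.1.0 against mm10, per the submitters' processing notes, and the annotation is not given in the sources used here. The members, gene lists and comparisons were chosen with earlier results of these data known. Each file lists 56941 features. Gene positions come from GENCODE M21 (GRCm38) and promoters from RefSeq.

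Cells were filtered and gated as described above. Scrublet (scanpy 1.11.5, expected rate 0.08) marked doublets, which were kept. UMIs were summed over cells and divided by the sum (CPM), and log2 ratios used a pseudocount of 1 CPM. Called means 2-fold or more in genes averaging 10 CPM or more, with the gate genes and Cxcr2 left out. The 95% intervals are conditional binomial for ratios and Clopper-Pearson for shares, both exact. No test was made, as each group is 1 library of replicate number 1. Clusters came from Leiden at resolution 0.5 (igraph 0.11.9). Gene sets comprised 24 lists and 15 marker sets. Of their genes, 4 were not matched by symbol (Ero1lb, Ero1l, Ddx58 and Vpreb1). Named genes were a fixed set of regulators and gate genes, the highest and lowest ratios (the weaker of the pair where both libraries or genotypes count) at 50 CPM or more in each comparison (12 each for KO against WT and against the other cells, 10 against c-Kit+ cells and 8 for differences of KO effects) and up to 4 per list. Csf1r, Mki67 and the cluster levels of genes other than leading ones were chosen after their values were seen. The calculation was tested on simulated counts. Alternatives were other gates, filters, scalings, pseudocounts and weights, doublets or haemoglobin-rich cells removed, and matched classes.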

Additional observations from a re-analysis of the deposited data

Results flagged for a closer look

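The KO over WT ratios of 4 named genes had opposite signs in the primary granule cells and in the other leukaemia cells, by 0.3 or more on the log2 scale on each side. The difference was not tested, as each group is 1 library.

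F13a1, a monocyte gene, was at 0.85 in primary granule cells (148 (WT) and 268 CPM (KO)) and at -0.36 in the others (260 and 202 CPM). Hdc, the histamine-forming enzyme, listed here with the primary granule partners, was at -0.95 (20.8 and 10.3 CPM) and at 1.26 (31.4 and 76.5 CPM). S100a4, a calcium-binding protein, was at 0.30 (14.3 and 17.8 CPM) and at -0.40 (96.9 and 73.3 CPM). Stfa2, a stefin of neutrophils, was at 0.34 (16.4 and 21.0 CPM) and at -0.64 (562 and 360 CPM).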

How the results depend on the processing

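The share of primary granule cells moved with the gate, and was higher in WT than in KO in every version run. It was 31.0% (WT) and 23.4% (KO) at a gate of 0.25%, 12.2% and 9.38% at 1%, and 4.27% and 3.87% at 2%. It was 22.2% and 16.9% without the Cxcr2 rule, 23.3% and 16.9% with a stricter cell filter, and 24.5% and 17.9% on thinned cells.

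Counts of genes past 2-fold moved with scaling and level. For KO against WT, median-ratio size factors gave 203 lower genes and a pseudocount of 5 CPM gave 266. A level filter of 50 CPM gave 178 higher and 117 lower, and no filter 709 and 1050. For primary granule cells against the others, median-ratio size factors gave 59 higher, a pseudocount of 5 CPM 62, a level of 50 CPM 41 higher and 138 lower, no filter 192 and 745, and equal weight per cell 297 higher. Against c-Kit+ cells, median-ratio size factors gave 440 higher and 517 lower, a level of 50 CPM 359 and 110, and no filter 1521 and 434. Genes whose KO effect was higher in primary granule cells by 1 or more (67 as reported) numbered 109 at a gate of 2%, 38 with a pseudocount of 5 CPM, 18 at 50 CPM and 281 with no filter, and those lower (43) 13 and 180. These last alternatives were chosen after seeing the data. Fewer or more genes are tested under another level by construction, and otherwise the cause was not tested. Leiden at a resolution of 1.0 gave 15 (WT) and 13 (KO) clusters.

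Of 3568 values of 223 named genes for KO against WT, 1 changed sign by the rule used: Lcn2 was at -0.027 in cells under 0.1% secondary granule UMIs. That rule counts only called values. Without it, 110 values of 43 of these genes changed sign, and none of the 312 values against the other cells or 120 against c-Kit+ cells did. Of 384 medians of 24 lists, 19 of 7 lists changed sign. Matched on secondary granule classes or in cells under 0.1%, the median turned from -0.34 to 0.24 and 0.29 for monocyte and macrophage genes, from -0.17 to 0.30 and 0.24 for growth factor receptors, and from 0.23 to -0.04 and -0.17 for the NADPH oxidase. With median-ratio size factors it turned from -0.16 to 0.10 for the BCL2 family, from -0.25 to 0.01 for MHC class II and from -0.03 to 0.23 for p53 targets, and the other list was that of primary granule partners (from 0.03 to -0.02 when matched on secondary granule classes). No paired analysis was possible because each group has 1 library. Depth limits low genes such as Cd34, Flt3 and Cst7.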

Other observations

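The oxidase that works beside myeloperoxidase in phagocytes, the NADPH oxidase, was measured in all 6 listed genes and was lower in primary granule cells than in the other leukaemia cells in 6 of 6 in both libraries, 1 of them by 2-fold or more, where 2381 of 8247 genes were lower in both. Cybb, its catalytic subunit, was at 511 (WT) and 687 CPM (KO) against 1297 and 1380 CPM. Between the libraries Cyba, the partner of Cybb in the membrane, was at 1361 and 1280 CPM in primary granule cells.

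Interferon-induced genes were also low in these cells. Of 16 measured 7 were 2-fold or more lower than in the other cells of both libraries and 0 higher, against 4.27% and 1.53% of all genes, with Ifi27l2a at 9.10 against 90.7 CPM in WT and 5.43 against 56.6 CPM in KO. Of 12 genes of MHC class I presentation 0 passed 2-fold the same way in both libraries. In glycolysis the glucose transporter gene Slc2a3 was at 23.9 (WT) and 118 CPM (KO) in primary granule cells and at 131 and 312 CPM in the others, whereas Pgam1, phosphoglycerate mutase, was at 839 and 426 CPM against 517 and 259 CPM.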
